A study of Mus musculus and Homo sapiens with 23 samples.

Results

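The matrix metalloproteinases (MMPs) and their tissue inhibitors (TIMPs) were described in BV2, a mouse cell line made by immortalising microglia, which are the macrophages of the brain. The 10 members were Mmp2, Mmp9, Mmp12, Mmp13, Mmp14, Mmp19, Mmp25, Timp1, Timp2 and Timp3, chosen by symbol from the 21598 genes of the deposited tables, and all 10 had a row. RNA was sequenced from BV2 cells left unstimulated (1 library) and from BV2 cells treated for 3 h with lipopolysaccharide (LPS), a component of the wall of Gram-negative bacteria (1 library). The labels name no genotype change, passage or other agent for these cultures, and both libraries come from the same line. The series was built around a histone acetylation mark, H2BK20ac, and these RNA libraries cover its question of how microglial cells respond to LPS. Its other 21 samples are chromatin samples and were not analysed here. Of 11 microglia and macrophage markers 10 reached 1 FPKM in either RNA library. The microglial markers P2ry12 and Tmem119 did so only in the unstimulated library, and Cx3cr1 in neither.

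MMPs are zinc proteases that cut collagen, elastin, basement membrane and many cell surface proteins. Most are secreted as inactive precursors and some are anchored in the plasma membrane. TIMPs bind the active site of MMPs and block it. In the brain, microglia are one source of MMPs, and inflammatory stimuli are known to raise several of them through AP-1, Ets and NF-kB transcription factors.

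Values are FPKM (fragments per kilobase of transcript, scaled to the mapped fragments of the library), which are comparable between genes because they are per length. The range after a value is the deposited 95% interval of that 1 library, which covers counting and the assignment of fragments and not the spread between cultures. Implied fragments are an estimate from the width of that interval, as if it covered counting alone, rounded to a whole number. There were no replicates, so no test was possible and each difference is between these libraries rather than between conditions. In bulk RNA, fewer cells of a kind and less RNA per cell cannot be told apart.

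Promoter sequence is shown for the member with the largest change on the log2(FPKM + 1) scale, the highest MMP level, an MMP listed at 0 before LPS and the most abundant inhibitor. The RefSeq promoter table of assembly GRCm38.p6 held 7 of the 10 members and had no entry for Mmp2, Mmp9 and Mmp19. The stretches run 5′ to 3′ from 250 bases before the annotated start to 30 bases after it. Capitals mark matches, on either strand, to AP-1 (TGANTCA), the TATA box (TATAAA), Ets (AGGAAG), Runx (AACCACA), C/EBP (TTGCNNAA) and NF-kB (GGGAA and CC parted by any 3 bases).
Mmp13, chr9:7272264-7272543, plus strand: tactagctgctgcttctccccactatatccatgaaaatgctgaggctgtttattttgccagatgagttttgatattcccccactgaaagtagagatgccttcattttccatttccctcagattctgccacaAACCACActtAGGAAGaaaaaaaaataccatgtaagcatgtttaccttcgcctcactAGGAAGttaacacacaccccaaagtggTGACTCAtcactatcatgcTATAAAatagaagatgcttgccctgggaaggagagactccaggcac
Mmp12, chr9:7347124-7347403, plus strand: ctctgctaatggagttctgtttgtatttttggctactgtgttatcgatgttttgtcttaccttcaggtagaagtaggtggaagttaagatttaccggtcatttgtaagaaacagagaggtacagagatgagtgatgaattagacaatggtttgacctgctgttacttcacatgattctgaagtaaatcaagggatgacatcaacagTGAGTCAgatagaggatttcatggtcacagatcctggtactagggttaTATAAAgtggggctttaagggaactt
Mmp14, chr14:54431348-54431627, plus strand: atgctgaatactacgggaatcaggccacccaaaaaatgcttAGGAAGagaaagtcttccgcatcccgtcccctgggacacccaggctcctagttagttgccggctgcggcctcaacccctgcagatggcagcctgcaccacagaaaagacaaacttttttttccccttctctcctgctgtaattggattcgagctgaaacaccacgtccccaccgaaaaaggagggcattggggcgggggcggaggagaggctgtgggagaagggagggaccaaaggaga
Timp2, chr11:118355382-118355661, minus strand: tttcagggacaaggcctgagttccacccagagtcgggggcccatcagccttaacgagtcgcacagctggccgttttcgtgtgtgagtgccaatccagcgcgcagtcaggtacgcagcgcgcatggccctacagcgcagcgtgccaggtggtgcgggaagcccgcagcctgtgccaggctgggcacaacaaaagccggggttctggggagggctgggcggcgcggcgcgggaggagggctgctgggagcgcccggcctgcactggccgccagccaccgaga

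Among these promoters the AP-1 and TATA letters were found in those of Mmp13 and Mmp12. In Mmp13 the Runx letters began 119 bases before the start, Ets letters 109 and 62 bases before it, the AP-1 match TGACTCA 35 bases before it and the TATA letters 16 bases before it. In Mmp12 the AP-1 match TGAGTCA began 44 bases before the start, and the TATA letters began 5 bases after it. Mmp12 has 2 annotated starts, and the printed one lies 74860 bases from the Mmp13 start, the same distance as between the deposited loci of both genes. The other Mmp12 start held Ets and C/EBP letters. Mmp14 and Timp3 held 1 Ets match each, Mmp25 held 2, Timp1 held 3 and Timp2 held none of the 6 motifs. Over all 32851 promoter windows of 300 bases, AP-1 letters stood in 7.81%, TATA letters in 13.6%, Ets letters in 35.4%, Runx letters in 5.27%, C/EBP letters in 10.8% and NF-kB letters in 5.78%. The NF-kB letters were in none of the windows of these 7 members, and Mmp2, Mmp9 and Mmp19 were not searched. With these letters in 5.78% of all windows, nothing is read from their absence. A match is a description of the letters, not a bound site.

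After LPS, the collagenase Mmp13 was the member with the largest change on the log2(FPKM + 1) scale, and 3 low MMPs (Mmp2, Mmp14 and Mmp25) went from 0 to 2 fragments before LPS to between 36 and 41 after it, at levels below 1 FPKM. The elastase Mmp12 and the gelatinase Mmp9 were at 1.54 and 1.64 times their unstimulated FPKM. Mmp19 was 2.88-fold lower and Timp2, the only abundant TIMP, 1.40-fold lower. Timp1 and Timp3 gave next to no fragments in either library.

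**Figure D1:**
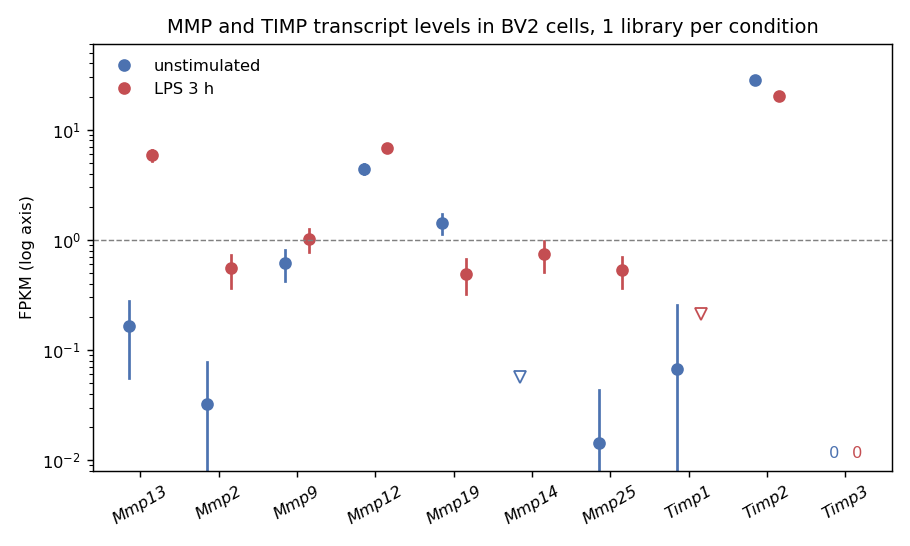
FPKM of the 10 genes (log axis) in the unstimulated (blue) and LPS (red) library, with the deposited 95% interval as a vertical line. Open triangles stand at the FPKM of 3 fragments for a gene listed at 0, Timp3 was listed at 0 in both, and the dashed line marks 1 FPKM, which Mmp12 and Timp2 passed in both libraries.

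Genes were counted where FPKM was 1 or more in either library, which 10035 genes and 5 members were (Mmp9, Mmp12, Mmp13, Mmp19 and Timp2). Mmp9 and Mmp13 were counted only through the LPS library. A counted gene was called higher or lower when its change, the LPS value of log2(FPKM + 1) less the unstimulated one, was at least 1 in size. By this rule 1 member, Mmp13, was higher, against 8.55% of all counted genes, and 0 were lower, against 12.4%. The median change of the 5 counted members was 0.32, beside -0.24 over all counted genes. The member median is the value of Mmp9, which was counted only through the LPS library, so nothing is read from the difference between these medians. Rescaling moves the median over all counted genes: by -0.21 for TPM, by 0.19 for median scaling and by 0.12 for quantile normalisation. Relative to it, Mmp13 stood at 2.80 as deposited and between 2.80 and 3.37 under these scalings.

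The collagenase Mmp13, which cleaves fibrillar collagens, lies on chromosome 9 (mm9, 7272514 to 7283333). Its level was 0.166 FPKM (0.0553 to 0.276, 9 fragments) in the unstimulated library and 5.88 FPKM (5.23 to 6.52, 335 fragments) after LPS. The library values were far apart and their intervals did not overlap. The ratio of FPKM was 35.4 (18.0 to 69.6). On the log2(FPKM + 1) scale the change was 2.56, rank 243 among the rises of 10035 counted genes, and it was 1.07 with a pseudocount of 5. The counted genes nearest to Mmp13 in both libraries, by distance on the log2(FPKM + 1) scale, were Mfsd7a (0.178 and 6.30 FPKM, distance 0.088), the guanylate-binding protein gene Gbp7 (0.0854 and 5.71 FPKM, distance 0.11) and the inositol phosphatase gene Inpp1 (0.261 and 6.10 FPKM, distance 0.12).

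The macrophage elastase Mmp12, which degrades elastin, lies on the same chromosome (mm9, 7347374 to 7360461) and was the most abundant MMP in both libraries. Its level went from 4.44 FPKM (3.95 to 4.93, 332 fragments) to 6.84 FPKM (6.25 to 7.43, 537 fragments). The intervals did not overlap, the ratio was 1.54 (1.34 to 1.77), and the change of 0.53 did not reach the size rule. Among counted genes its level stood at percentile 32.8 before and 48.4 after LPS, so the leading MMP was a gene of middling level.

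The gelatinases Mmp2 and Mmp9 degrade denatured collagen and basement membrane collagen. Mmp9 (mm9 chromosome 2, 164773751 to 164781346) was at 0.620 FPKM (0.424 to 0.817, 40 fragments) and 1.02 FPKM (0.774 to 1.26, 69 fragments). Its intervals overlapped, and the ratio was 1.64 (1.10 to 2.44). Mmp2 (mm9 chromosome 8, 95351227 to 95377319) was at 0.0321 FPKM (0 to 0.0775, 2 fragments) and 0.550 FPKM (0.367 to 0.733, 36 fragments). Its intervals were apart, and the ratio of 17.1 had an exact counting interval of 4.41 to 147 because it rests on 2 unstimulated fragments.

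The membrane-anchored members were near the limit of detection before LPS. Mmp14, a transmembrane MMP that activates the Mmp2 precursor on the cell surface with Timp2 as its adaptor, lies on chromosome 14 (mm9, 55050441 to 55060095). It was listed at 0 in the unstimulated library, where 3 fragments would give 0.0571 FPKM. After LPS it was at 0.743 FPKM (0.511 to 0.974, 41 fragments), 13.0 times that limit, without the counting error of the LPS value. Mmp25 (mm9 chromosome 17, 23766425 to 23782236), an MMP held by a lipid anchor and known from neutrophils, was at 0.0144 FPKM (0 to 0.0431, 1 fragment) and 0.533 FPKM (0.363 to 0.704, 39 fragments). The ratio of 37.1 had an exact counting interval of 6.28 to 1504. The 6 neutrophil markers summed to 4.24 FPKM before LPS and 2.27 FPKM after it, most of it S100a8, and their part in the values of Mmp25 was not tested. Mmp2, Mmp14 and Mmp25 were thus read from 0 to 2 fragments in 1 library and 36 to 41 in the other. Mmp14 would be counted and called after rescaling to TPM, with a change of 1.07.

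Mmp19, which cleaves basement membrane proteins, was the only one of the 7 MMP members with a lower value after LPS. Its level was 1.42 FPKM (1.13 to 1.71, 96 fragments) in the unstimulated library and 0.494 FPKM (0.325 to 0.663, 35 fragments) after LPS. The intervals did not overlap and the LPS value was 2.88-fold lower (1.93 to 4.29). The change of -0.70 was short of the size rule and became -1.36 with a pseudocount of 0.1. The gene has 2 RefSeq transcripts that overlap on chromosome 10 (mm9, 128227966 to 128237880), and NM_001164197 held nearly all of the signal (1.42 and 0.494 FPKM). The locus of Mmp19 overlaps that of Tmem198b, which was at 2.09 FPKM before LPS and 0.915 FPKM after it. Whether reads of both genes were separated was not tested. The counted genes nearest to Mmp19 in both libraries were the DNA ligase gene Lig4 (1.44 and 0.492 FPKM, distance 0.013), the centriole gene C2cd3 (1.45 and 0.501 FPKM, distance 0.017) and Ddias (1.40 and 0.467 FPKM, distance 0.028).

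**Figure D2:**
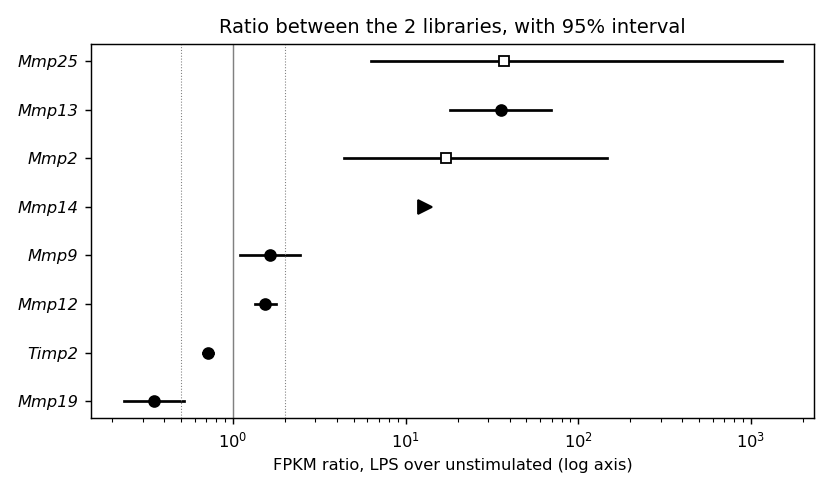
Ratio of FPKM, LPS over unstimulated (log axis), for the 8 members with at least 10 fragments in either library. Filled circles have intervals from the deposited bounds, open squares exact counting intervals and the arrowhead a lower bound; dotted lines mark 2-fold in each direction. Mmp13 stands at 35.4, Timp2 at 0.717 and Mmp19 at 0.347.

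Timp2, which inhibits most MMPs, lies on chromosome 11 (mm9, 118162375 to 118216725) and was the most abundant member. It was at 28.3 FPKM (27.1 to 29.5, 2126 fragments) in the unstimulated library and 20.3 FPKM (19.3 to 21.3, 1600 fragments) after LPS. The intervals did not overlap, and the LPS value was 1.40-fold lower (1.31 to 1.49). The change of -0.46 did not reach the size rule, and relative to the median of all counted genes it was -0.22. Timp1 (chromosome X, 20447292 to 20451863), the inhibitor that also binds the Mmp9 precursor, was at 0.0666 FPKM (0 to 0.255) in the unstimulated library, about 1 fragment over its 2 transcripts, and listed at 0 after LPS, where 3 fragments would give 0.213 FPKM. Timp3 (chromosome 10, 85763157 to 85812250), the matrix-bound inhibitor that also acts on Adam17, was listed at 0 in both libraries. No difference of Timp1 or Timp3 was detectable at this depth.

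The size rule leaves out low genes, so the deposited intervals were also compared directly. Of the 9 members above 0 in either library, 5 had separate intervals with the LPS value higher (Mmp2, Mmp12, Mmp13, Mmp14 and Mmp25), against 18.6% of 14239 such genes. Another 2 had separate intervals with the LPS value lower (Mmp19 and Timp2), against 37.8%. Of the 5, Mmp14 was above 0 only through the LPS library, and Mmp2 and Mmp25 had 2 and 1 unstimulated fragments. The members were also chosen with earlier results of these data known, so nothing is read from these numbers. In a rule chosen after the values were seen, a gene needed 10 fragments in either library and a 2-fold ratio of FPKM. Of the 8 members that passed the fragment limit, 4 were higher (Mmp2, Mmp13, Mmp14 and Mmp25), against 10.2% of 11473 genes, and 1 was lower (Mmp19), against 24.8%. The 4 that were higher had fewer than 10 unstimulated fragments and passed the limit only through the LPS library, so nothing is read from their number.

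The 7 MMPs summed to 6.70 FPKM (6.08 to 7.31) before LPS and 16.1 FPKM (15.1 to 17.0) after it, and the ratio of the sums was 2.40 (2.15 to 2.68). The 3 TIMPs summed to 28.4 FPKM (27.1 to 29.6) and 20.3 FPKM (19.3 to 21.3), which gave 0.715 (0.669 to 0.764). Within a library, where scaling by a single factor cancels, TIMP transcripts were 4.24 times (3.83 to 4.69) the MMP transcripts before LPS and 1.26 times (1.17 to 1.37) after it. Mmp12 held 66.3% of the MMP sum before LPS and 42.6% after it. Mmp13 held 2.48% and then 36.6%. These are transcript sums, and neither protein nor protease activity was measured.

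**Figure D3:**
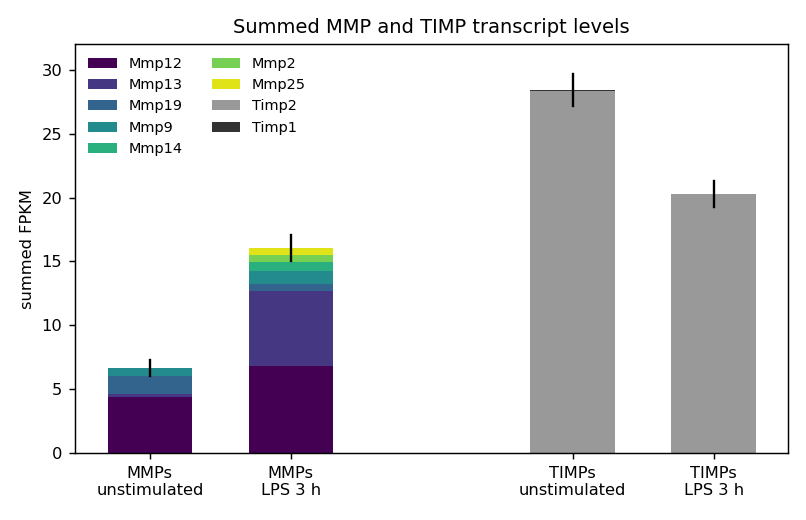
Summed FPKM of the 7 MMPs, stacked by gene, and of the TIMPs for each library, with black lines for the combined 95% interval of each sum. The MMP stack goes from 6.70 to 16.1 FPKM with Mmp13 as the main added part, and the TIMP bar, nearly all Timp2, goes from 28.4 to 20.3 FPKM.

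Mmp12 and Mmp13 belong to a cluster of MMP genes on chromosome 9. The deposited tables held 9 genes of this cluster over 427 kb of mm9, from Mmp13 through Mmp12, Mmp1b, Mmp3, Mmp1a, Mmp10, Mmp8 and Mmp20 to Mmp7. Only Mmp13 and Mmp12, at 1 end of the cluster, reached 1 FPKM in either library. The collagenases Mmp1a and Mmp1b, the enamel protease Mmp20 and matrilysin, Mmp7, were listed at 0 in both. Stromelysin, Mmp3, gave 0 and 1 fragment. Mmp10, a second stromelysin, was at 0.151 FPKM (5 fragments) and 0.344 FPKM (12 fragments), with overlapping intervals. The neutrophil collagenase Mmp8 was at 0.223 FPKM (0.0884 to 0.357, 11 fragments) and 0.0193 FPKM (0 to 0.0578, 1 fragment), a ratio of 0.0866 with an exact counting interval of 0.00201 to 0.596.

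**Figure D4:**
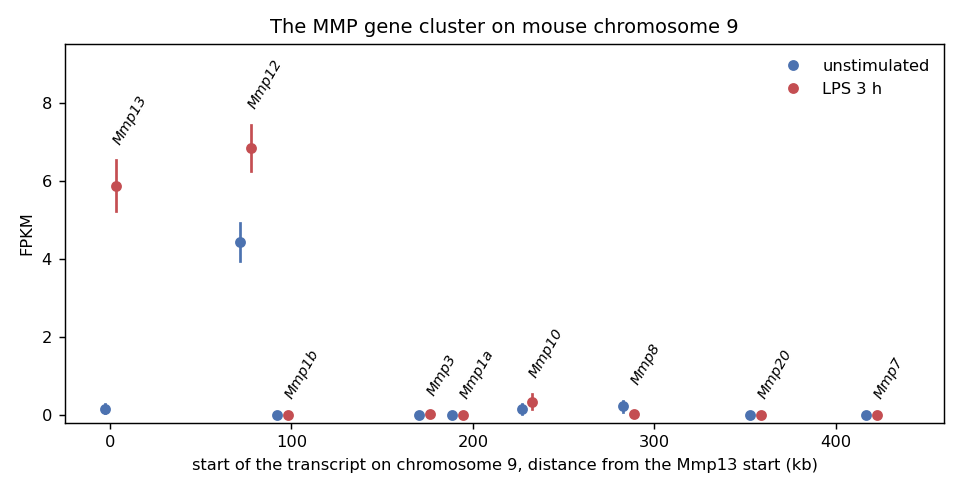
FPKM of the 9 MMP genes of the chromosome 9 cluster against the distance of their start from that of Mmp13 (kb), in the unstimulated (blue) and LPS (red) library with deposited 95% intervals. Mmp13 and Mmp12 stand above 5 FPKM after LPS and the other 7 genes lie below 0.4 FPKM in both libraries.

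Of the other 16 MMP and TIMP genes in the tables, 0 reached 1 FPKM in either library and 8 were listed at 0 in both. Their summed FPKM was 0.619 and 0.560. The highest were Mmp8 before LPS and Mmp10 after it. Mmp27 was not analysed here.

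Among genes that switch MMPs on, hold them at the cell surface or clear them, most counted ones were higher after LPS. Of 24 listed regulators 12 were counted, 7 were higher, 1 was lower and the median change was 1.97. Over all counted genes 8.55% were higher and 12.4% lower, with a median of -0.24. Lcn2, a lipocalin that binds Mmp9, went from 0.281 FPKM, read from 4 fragments, to 125.9 FPKM (120.1 to 131.7). The Lcn2 ratio was 449 (165 to 1222). Plasminogen activation is an upstream step of MMP activation. Serpinb2, an inhibitor of plasminogen activators, was listed at 0 and then at 3.06 FPKM, 40.0 times the level of 3 fragments, without the counting error of the LPS value. Plaur, the urokinase receptor, went from 39.7 to 271 FPKM, while Plau, urokinase itself, was at 50.8 (48.7 to 52.9) and 44.7 (42.8 to 46.6) FPKM, a change of -0.18. Cd44, a hyaluronan receptor that docks Mmp9, went from 19.1 to 117.5 FPKM and the crosslinking enzyme Tgm2 from 0.517 to 6.70 FPKM. Bsg, a surface protein that induces MMPs in neighbouring cells, had the highest level of the list, 356 (348 to 363) and 547 (538 to 556) FPKM, and a change of 0.62. Plau and the 2 next genes are named after their values were seen. Furin, the convertase that cuts the precursor of Mmp14, went from 6.88 (6.26 to 7.51) to 28.7 (27.5 to 29.9) FPKM. Lrp1, a receptor that takes up MMPs and their complexes with TIMPs, was the 1 lower gene, from 18.8 (18.3 to 19.3) to 8.02 (7.71 to 8.33) FPKM, and it was not called with a pseudocount of 5 or after median scaling. The membrane-bound MMP inhibitor Reck was listed at 0 in both libraries.

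Calls in the other protease families stand beside 8.55% higher and 12.4% lower over all counted genes, and nothing is read from their number. Of 25 ADAM and ADAMTS genes and their cofactors 9 were counted, 1 was higher and 1 lower, with a median of -0.01 that became 0.20 after median scaling. The higher one was Rhbdf2, a partner that matures Adam17, from 2.58 (2.21 to 2.95) to 27.2 (26.0 to 28.4) FPKM. The lower one was the sheddase Adam10, from 13.5 (12.7 to 14.2) to 5.68 (5.21 to 6.16) FPKM, a call lost with a pseudocount of 5, after median scaling and after quantile normalisation. Adam17, the sheddase of tumour necrosis factor, was at 19.6 and 27.9 FPKM, a change of 0.49. Of 20 cathepsins and cystatins 16 were counted, 1 was higher and 0 lower, with a median of 0.07 that fell below 0 after TPM (-0.14) and quantile normalisation (-0.054). The higher one was Ctsc, which activates serine proteases, from 44.9 to 99.0 FPKM, not called after TPM or quantile normalisation. Among the highest levels of this list, Ctsd was at 2773 and 2805 FPKM and Ctsz at 2398 and 3698 FPKM.

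Most MMP substrates of the matrix were not transcribed at a countable level. Of 38 matrix genes and their modifying enzymes 5 were counted and 14 were listed at 0 in both libraries. The basement membrane genes Agrn (0.569 to 9.47 FPKM) and Lamc1 (5.60 to 14.4 FPKM) were higher, Lamc1 not with a pseudocount of 5, and 0 were lower. The median of the 5 was 0.61. Spp1, osteopontin, a secreted protein that MMPs cleave, was at 8375 and 6311 FPKM, a change of -0.41. Of 24 factors and cytokines known to act on MMP genes 20 were counted, 16 were higher and 1 lower, with a median of 1.83. Beside this list and the matrix genes, 8.55% of all counted genes were higher and 12.4% lower, with a median of -0.24. The cytokine genes Il1b, Il6 and Tnf had ratios of 716, 986 and 63.9. The AP-1 genes, named after their values were seen, went both ways. Junb (38.4 and 296 FPKM) and Jund (20.9 and 54.3 FPKM) were called higher. So was Fosl1, at 0.0303 FPKM (1 fragment) and 1.41 FPKM (1.01 to 1.82). Fos, the 1 lower gene, was at 13.0 and 2.27 FPKM. Jun (18.2 and 11.7 FPKM) and Fosl2 (1.58 and 2.29 FPKM) did not reach the size rule, and Fosb was listed at 0 in both libraries. The lists were drawn up with earlier results of these data known, so their counts are a description.

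**Figure D5:**
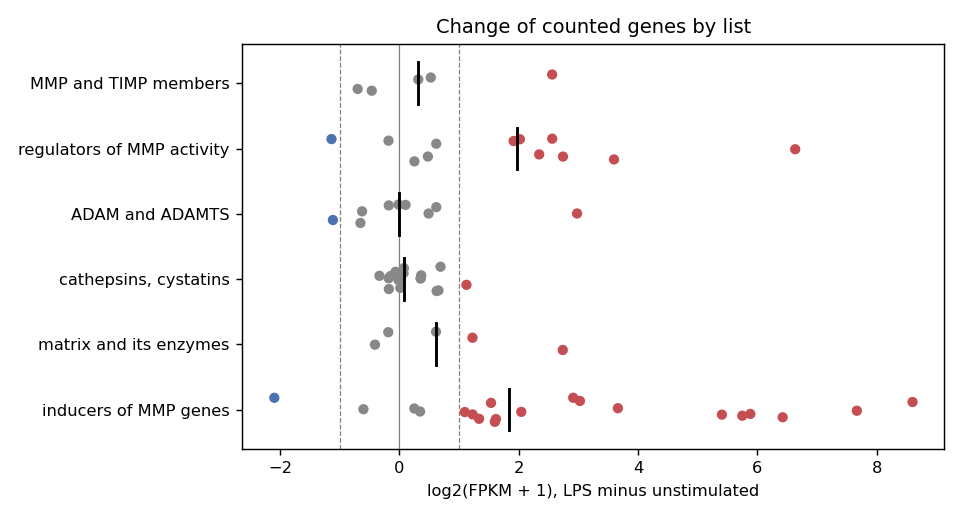
Change of each counted gene on the log2(FPKM + 1) scale, LPS minus unstimulated, by list; black bars are list medians, dashed lines the size rule, red points higher genes and blue points lower genes. The medians are 0.32 for the members, 1.97 for the regulators and 1.83 for the inducers, and those of the other 3 lists lie between -0.01 and 0.61. The member median is the value of Mmp9, which was counted only through the LPS library.

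Genes within 200 kb of a member in mm9 were read as local context. There were 106 such genes that are no member, 59 of them counted. Of the counted ones 5 were higher and 5 lower, against 8.55% and 12.4% of all counted genes. Neither share was above that of all counted genes, so nothing is read from these counts. Lpcat2, which makes phospholipids, lies 1.93 kb from Mmp2 and went from 2.88 to 14.2 FPKM. Cd40, the co-stimulatory receptor, lies 99.8 kb from Mmp9 and went from 13.3 to 1008 FPKM, beside the small difference of Mmp9. Tnfrsf12a, a receptor of the tumour necrosis factor family, lies 30.2 kb from Mmp25 and went from 17.0 to 45.7 FPKM, and Lgals3bp, a secreted galectin ligand, lies 37.3 kb from Timp2 and went from 18.9 to 157 FPKM. Lrp10, 22.9 kb from Mmp14, went from 5.61 to 16.2 FPKM. The lower neighbours were Zswim3 near Mmp9, Haus4 near Mmp14, the kinase gene Cdk2 near Mmp19, and Araf and Cfp near Timp1. Whether counting used strand is not known here, so reads of genes that overlap may not have been separated.

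The label of a microglial line was read against marker genes. Among the counted microglia and macrophage markers were Tyrobp at 4128 and 3064 FPKM and Spi1 at 217 and 707 FPKM, whereas Cx3cr1 stood at 0.142 and 0.0615 FPKM. P2ry12 was at 1.19 and 0.223 FPKM and Tmem119 at 2.16 and 0.601 FPKM, each with separate intervals; these markers are named after their values were seen. Of 9 fibroblast and mural cell markers 0 were counted, the list summed to 0.104 and 0.332 FPKM, and Col1a1, Col1a2 and Col3a1 were listed at 0 in both libraries. The 6 astrocyte markers summed to 0.0236 and 0.0484 FPKM and the 7 neuron markers to 0.108 and 0.200 FPKM. Of 6 neutrophil markers, a cell type rich in Mmp8, Mmp9 and Mmp25, S100a8 was counted and called lower, on overlapping intervals (4.11 and 1.38 FPKM, 17 and 6 fragments), and S100a9 was at 0 in both. Of 6 endothelial markers Flt1 (12.9 FPKM before LPS and 19.3 to 20.8 FPKM after it) and Kdr (5.45 and 4.79 FPKM) were counted, while Tek and Cldn5 were at 0 in both.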

How the data were processed

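RNA-seq of 2 BV2 libraries was used, 1 unstimulated and 1 after LPS for 3 h. Libraries were made with a directional kit from Trizol-extracted RNA, per the labels' protocols. The authors deposited FPKM values with a lower and an upper bound for 28246 RefSeq transcript rows per library, made with Cufflinks on mm9 per the submitters' processing notes. For the aligner, the Cufflinks version and the strand setting the sources used here give nothing. Symbols came from a RefSeq table of assembly GRCm38.p6 (27556 rows matched, others kept under their accession).

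Rows with a status other than OK in either library (391) and small RNA rows were dropped. Values were summed per symbol, with half-widths in quadrature (Python 3.11.15, pandas 2.3.3, scipy 1.17.1). Implied fragments are the square of 2 × FPKM over the half-width. Among rows with fewer than 50, 67.5% (unstimulated) and 68.9% (LPS) came within 0.05 of a whole number, and they summed to 13800000 and 16930000 to the nearest 10000. Per fragment, the denominator of FPKM was 1.05 times larger in the LPS library. Ratio intervals combine both deposited intervals on the log scale. With 1 to 3 fragments in a library an exact conditional (Clopper-Pearson) interval was used, and for a value listed at 0 a floor of 3 fragments, both for counting error only. The code was tested on simulated data.

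With 1 library per group no test was made and calls rest on size. Named genes were all members and, per list, up to 6 called genes with the largest change and the 3 highest levels, called neighbours within 200 kb, and the 3 nearest genes to the members with the largest rise and fall. One gene that this rule names is not reported here. Members, lists and rules were chosen with earlier results of these data known. Alternatives were other pseudocounts, filters, scalings, transcript rows, statuses and call rules.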

Additional observations from a re-analysis of the deposited data

How the results depend on the processing

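Mmp13 was called higher under each of the 12 alternatives run, but several of these could not have removed the call. No filter, the 1.5-fold rule and a pseudocount of 0.1 only loosen the rule or enlarge the change. Mmp13 has 1 transcript row, of status OK, so the transcript and status alternatives left it unchanged. The number of members called higher was 1 as reported, 2 after TPM (with Mmp14) and 4 under the fragment rule added after seeing the data. The number called lower was 0 as reported and 1, Mmp19, with a pseudocount of 0.1, at 1.5-fold and under the fragment rule. The median of the counted members was 0.61 with a pseudocount of 0.1, 0.10 with a pseudocount of 5, 0.53 with a filter at 5 FPKM and with no filter, and 0.62 after quantile normalisation. Each of the 9 members above 0 kept its direction in the 7 alternatives for which its change was computed, but few of these could have reversed it. A pseudocount cannot reverse a direction, and the transcript and status alternatives left the changes nearly the same. TPM, median scaling and quantile normalisation could have done so, except for Mmp14 and Timp1, each listed at 0 in 1 library.

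For the regulators of MMP activity the number lower was 0 after median scaling and with a pseudocount of 5. Their median was 2.33 and 0.89 with pseudocounts of 0.1 and 5, 2.13 with a filter at 5 FPKM, 0.55 with no filter, 2.07 after TPM, 2.16 after median scaling and 2.09 after quantile normalisation. ADAM and ADAMTS genes had 2 higher and 3 lower at 1.5-fold, 0 lower with a pseudocount of 5, after median scaling and after quantile normalisation, and medians of -0.22 after TPM and 0.20 after median scaling. Cathepsins and cystatins had 0 higher after TPM and quantile normalisation and 4 at 1.5-fold, with medians of -0.14 (TPM), 0.30 (median scaling), -0.054 (quantile normalisation) and 0.11 (each transcript on its own). Matrix genes had 1 higher with a pseudocount of 5 and 1 lower after quantile normalisation, with medians of 0.50 (pseudocount of 5), -0.0079 (no filter), 0.15 (TPM) and 0.83 (median scaling). Inducing factors had 2 lower at 1.5-fold, with medians of 2.53 and 1.59 (pseudocounts of 0.1 and 5), 2.91 (filter at 5 FPKM), 1.61 (no filter), 1.56 (TPM) and 2.05 (median scaling). The causes of these shifts were not tested.

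Over all counted genes the numbers higher and lower were 858 and 1248 as reported, 577 and 354 with a pseudocount of 5, 983 and 2061 with a pseudocount of 0.1, 778 and 2198 after TPM, 1063 and 888 after median scaling, 959 and 841 after quantile normalisation, and 1383 and 2978 at 1.5-fold. Higher genes were 40.7% of those called as deposited, 62.0% with a pseudocount of 5, 26.1% after TPM, 54.5% after median scaling and 53.3% after quantile normalisation. No paired analysis was possible because each group has 1 library. Values below about 10 fragments (unstimulated Mmp2, Mmp13, Mmp14 and Mmp25, and Timp1 and Timp3 in both libraries) are limited by depth.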
